A study of Mus musculus with 10 samples.

Results

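Mammary macrophage libraries labeled for loss of C/EBPβ were compared with libraries labeled WT in 6 RNA-seq libraries, all 6 macrophage libraries of a series of 10 samples. The members are the columns of the macrophage count table whose labels name them, 4 libraries labeled as C/EBPβ knockdown (called KO here, KO 4, KO 5, KO 6 and KO 7) and 2 labeled WT (WT 4 and WT 5). Of 55487 genes in the table, 17772 were tested, namely those of at least 300 nt with over 1 CPM, that is, counts scaled to the total of the library, in 2 or more of the 6 libraries. The study asked which macrophage signals that depend on C/EBPβ reach the neighboring epithelium during the estrous cycle.

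Both genotypes were Cebpb fl/fl on the BALB/c background, and the cells came from 10-wk-old female mice in diestrus. KO mice also carried Csf1r-iCre, which acts in myeloid cells that express CSF1R rather than in macrophages alone, and WT mice were negative for Cre. The labels call the KO a knockdown, whereas the breeding scheme is a conditional deletion. Macrophages were taken from digested glands, freed of lymph nodes, by positive selection with antibody to F4/80, the product of Adgre1. Whether a library is 1 mouse or a pool is not stated, so P-values here measure the spread between libraries. The total count was 18252188, 19784862, 19091918 and 16935000 in KO 4 to KO 7 and 18430304 and 20174722 in WT 4 and WT 5, at which 3 counts, taken as the smallest level that can be shown, correspond to 0.149 to 0.177 CPM (counting error only).

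C/EBPβ is a basic leucine zipper transcription factor of myeloid cells that takes part in cytokine expression and in alternative activation. The mammary gland holds macrophages in the stroma, marked by LYVE1 and the folate receptor FOLR2, and macrophages within the ducts, marked by CX3CR1 and CD11c. Macrophages take up dying cells, present antigen through MHC class II and supply growth factors and Wnt ligands to the epithelium.

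Cebpb itself did not separate the labels. This single-exon gene (ENSMUSG00000056501, GRCm38 chromosome 2, 167688915 to 167690418) had 16, 13, 5 and 4 counts in KO 4, KO 5, KO 6 and KO 7 and 13 and 15 counts in WT 4 and WT 5. It was below the expression filter in both genotypes and was not tested, and the levels of the genotypes overlapped (0.504 ± 0.289 CPM, SD, n = 4, and 0.714 ± 0.047 CPM, n = 2). Its exon shares 312 bases with Tmem189 on the other strand, which had 2225 counts over the 6 libraries against 66 for Cebpb. The counts therefore give no check of the deletion, and KO and WT below mean the libraries so labeled. Of the related factors, Cebpa was at 11.4 ± 2.45 CPM in KO and 11.6 ± 4.32 CPM in WT, and Cebpd at 30.4 ± 14 and 18 ± 2.11 CPM, with overlapping libraries for both.

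The libraries hold transcripts typical of cells other than macrophages, called carry-over here, and whether these came from other cells or were within macrophages was not tested. Levels in the macrophage libraries from here on, and those of the C/EBP genes above, are CPM scaled by the trimmed mean of M-values (TMM). Levels in the epithelial libraries, and percents of them, use CPM of the library total instead. The 17 genes of the macrophage core list, which includes Adgre1, Csf1r and Cd68, summed to 9120, 11894, 12512 and 14440 CPM in KO 4 to KO 7 and to 8234 and 8504 CPM in WT 4 and WT 5. Every KO library was above both WT libraries, and the KO mean was 1.43 times the WT mean (exact two-sided permutation P = 0.133, the smallest that 4 libraries against 2 can give). The 13 pan-epithelial genes, such as Krt8, Epcam and Cdh1, went the other way, with 7643, 6311, 6074 and 7723 CPM in KO and 11617 and 11341 CPM in WT (exact P = 0.133). As a percent of their mean in the 2 WT mammary epithelial libraries of the series, the pan-epithelial carry-over was 23, 18.3, 16.5 and 21.2% in KO 4 to KO 7 and 34.6 and 32.4% in WT 4 and WT 5, thus 19.7 ± 2.91% (SD, n = 4) against 33.5 ± 1.53% (n = 2).

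Other epithelial lists were read in the same way. Genes of basal cells, the contractile outer layer of the duct, were at 53, 33.2, 29.8 and 11.9% of the epithelial libraries in KO 4 to KO 7 and at 21.7 and 14.2% in WT. Genes of luminal progenitor and alveolar cells were at 43.2 to 66.1% in KO and at 34.8 and 37.9% in WT, but without Trf and Cd14, which macrophages express too, the list was at 16.6 to 31.9% and at 19 and 17.2%, with overlap. Genes of hormone-sensing luminal cells were at 30.8 to 58.6% in KO and at 62 and 65.2% in WT, without overlap. Their TMM-scaled sums did overlap, with KO 7 at 2486 CPM and WT 4 and WT 5 at 2419 and 2652 CPM (exact permutation P = 0.267). So WT libraries held more pan-epithelial RNA and, on average only, more hormone-sensing RNA, whereas KO 4 held the most basal RNA and KO 7 the least. Fibroblast genes summed to 3680 to 8362 CPM in KO and 7857 and 7477 CPM in WT, and endothelial genes to 1229 to 2598 and 1654 and 1937 CPM, with overlap in both. In such bulk libraries, fewer cells of a type and less RNA per cell cannot be told apart, and the part of this mixture in the differences below was not tested beyond the covariate fits given beside them.

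**Figure D1:**
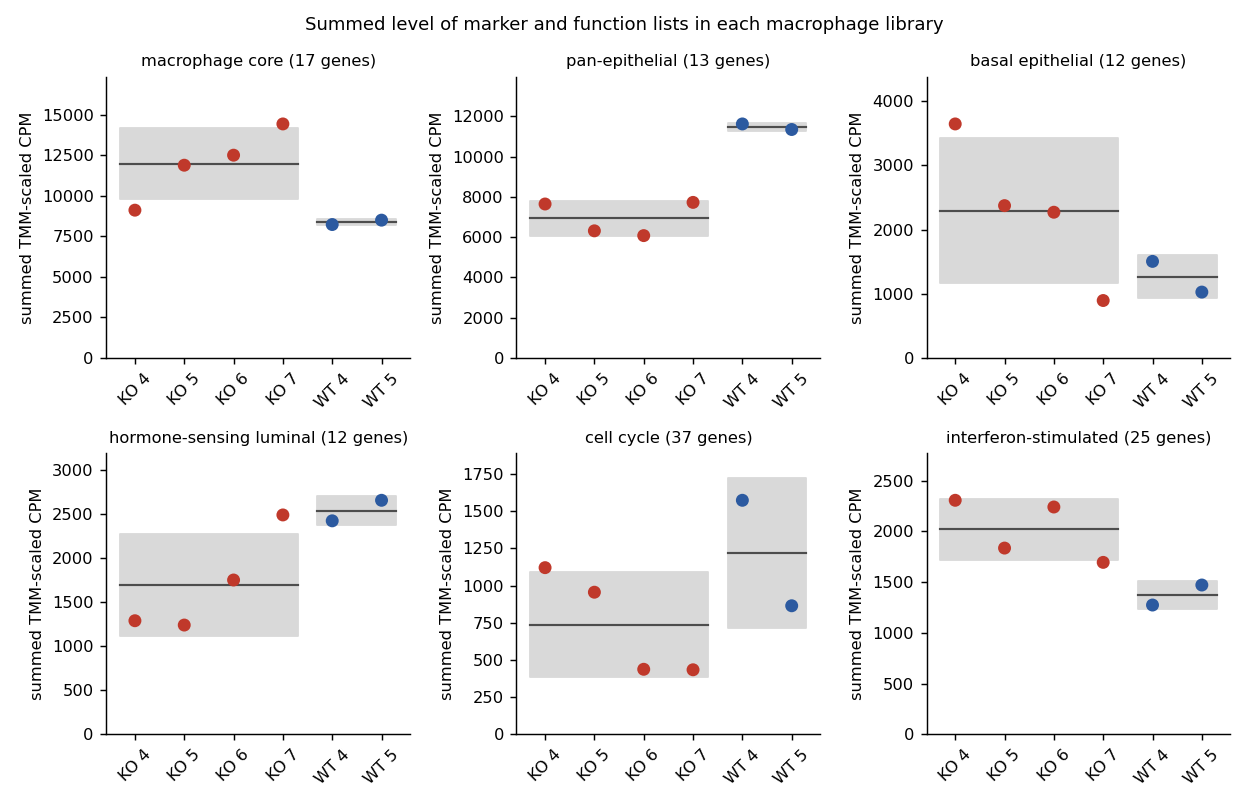
Summed TMM-scaled CPM of 6 gene lists in each library (points, KO in red and WT in blue), with the mean (line) and SD (gray band) of each label. The 4 KO libraries lie above both WT libraries for macrophage core and interferon-stimulated genes and below both for pan-epithelial genes, while basal and cell cycle sums vary several-fold among KO libraries.

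No gene passed the quasi-likelihood (QL) test of edgeR at an adjusted P of 0.05 (0 of 17772, 0.0%), and the smallest adjusted P was 0.417. At an unadjusted P under 0.05 there were 1735 genes (9.76%), of which 944 were higher in KO (5.31%) and 791 lower (4.45%). The likelihood ratio test, which the study's methods name and which does not carry the uncertainty of each gene's variance, called 138 genes (0.777%), 111 higher (0.625%) and 27 lower (0.152%). DESeq2 called 201 (1.13%), and 117 of these were also called by the likelihood ratio test. All 4 KO libraries exceeded both WT libraries in 1719 genes (9.67%) and lay below both in 1613 (9.08%). Because no gene passed the main test, differences below are stated as values, and the adjusted P of each gene named was 0.417 or more.

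Genes were also split by their level in WT epithelium. Of 1359 macrophage-high genes, at least 8 times as abundant in the macrophage libraries as in the WT epithelial libraries, 956 had a positive fold change and the median log2 fold change was 0.37, against 0.00 over all genes tested, of which 50.4% were positive. At an unadjusted P under 0.05, 294 of them (21.6%) were higher in KO and 15 (1.10%) lower, and without WT 4 the higher share was 12.4%. The KO libraries enter this class, so a high level in KO favors membership. With the class set from the 2 WT macrophage libraries alone, an alternative added after the data were seen that favors genes high in WT, 791 of 1311 genes were positive (median 0.17), with 16.9% higher and 2.97% lower at this P. Among the 16368 genes in neither class these shares were 3.97% and 4.73%. A fit added after the data were seen took the mean log2 level of the macrophage core list as a covariate. In it, 4.05% of the 1359 macrophage-high genes were higher at this P, beside 1122 of all 17772 genes tested. Core sums, like pan-epithelial sums, did not overlap between labels, so a fit with either list as covariate cannot fully separate it from the label.

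Very low counts in WT made up much of what the likelihood ratio test called. Of its 111 genes higher in KO, 46 had 0 counts in both WT libraries and 65 averaged under 5 CPM in KO. In all, 94 tested genes were at 0 in both WT libraries, with a median KO level of 1.11 CPM and a highest of 5.01 CPM, and no tested gene was at 0 in all 4 KO libraries. Fitted log2 fold changes of such genes, the band above 6 in the plot of difference against level, depend on the prior count and are no measure of size. The filter can be met by any pair of the 4 KO libraries but by 1 pair of WT libraries: 580 tested genes were over 1 CPM in at least 2 KO libraries and in neither WT library, and 71 were over 1 CPM in both WT and in no KO library. WT libraries also detected fewer genes, 23319 and 22566, against 23805 to 26042 in KO.

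**Figure D2:**
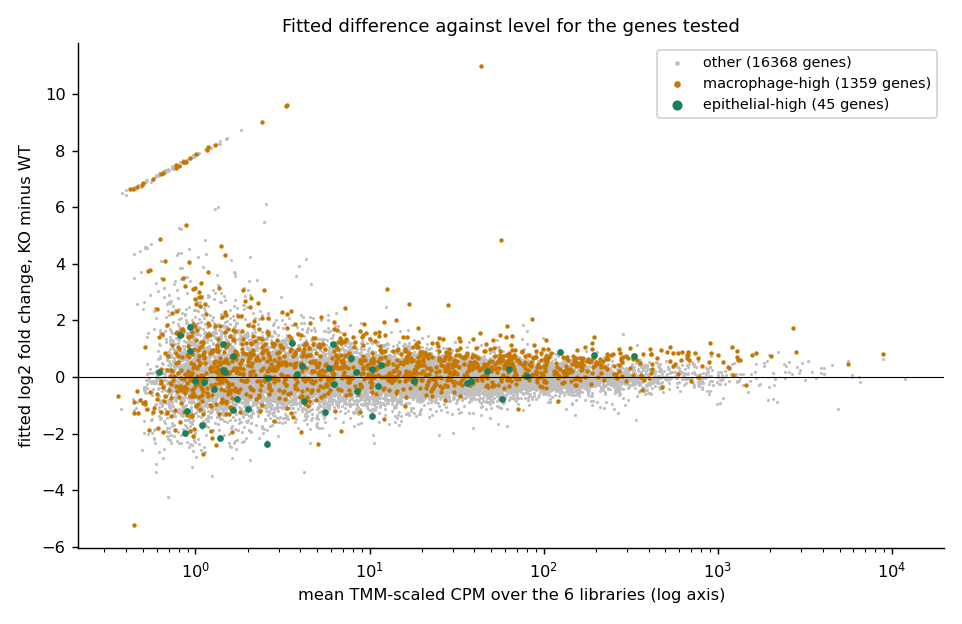
Fitted log2 fold change (KO minus WT) against the mean TMM-scaled CPM over the 6 libraries (log axis) for the 17772 genes tested, colored by class. Macrophage-high genes (1359, of which 956 lie above 0) are at least 8 times as abundant in the macrophage libraries as in WT epithelium, epithelial-high genes (45) the reverse, and the slanted band above 6 holds genes with 0 counts in both WT libraries.

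The genes with the smallest P whose libraries did not overlap, 10 in each direction, were picked after their values were seen. Highest on this list was Ifi27l2a, an interferon-inducible gene of the mitochondrial membrane (ENSMUSG00000079017, chromosome 12, 103442167 to 103443680). Its level was 132, 121, 121 and 139 CPM in KO 4 to KO 7 and 53.2 and 51.5 CPM in WT, a log2 fold change of 1.29 ± 0.16 (SE; adjusted P = 0.417). Both groups were tight, and the gap was many times their spread. Abcg3, a member of the ABC transporter family, was at 11.3 to 13.2 CPM in KO and at 3.04 and 3.59 CPM in WT (1.88 ± 0.31). Blnk, an adaptor of B-cell receptor signaling that macrophages also express, was at 56.3 to 78.1 CPM in KO and 32.4 and 31.2 CPM in WT (1.07 ± 0.20). Amdhd1, an enzyme of histidine breakdown, was at 17.1 to 22.8 against 6.91 and 8.66 CPM, and N4bp2l1 at 33.3 to 46.7 against 14.2 and 18.4 CPM. The other KO-high genes of this kind, Siglech, Ccl8, Spi1, Apc2 and Ccl24, belong to groups described below.

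On the lower side Cdk18, a PCTAIRE-family cyclin-dependent kinase (ENSMUSG00000026437, chromosome 1, 132112237 to 132139684), was at 9.06, 10.1, 9.21 and 8.29 CPM in KO 4 to KO 7 and at 26.5 and 27.6 CPM in WT. Its log2 fold change of -1.56 ± 0.22 (adjusted P = 0.417) had the smallest P among genes lower in KO, and with the macrophage core covariate it was -1.55. Dsp, which encodes the desmosomal protein desmoplakin of epithelial junctions, was at 19.7 to 29.6 CPM in KO and 66.3 and 55.2 CPM in WT (-1.28 ± 0.21). Stat5a, a mediator of prolactin and cytokine signals (chromosome 11, 100859351 to 100885169), was at 141, 170, 124 and 179 CPM in KO and at 364 and 281 CPM in WT (-1.07 ± 0.19). Crym, a thyroid hormone-binding protein, was at 18 to 26.6 CPM against 40.6 and 109 CPM, a group in which the WT libraries differed by more than 2-fold. In the WT epithelial libraries Dsp, Stat5a and Crym were at 108, 228 and 96.3 CPM of the library total. With the pan-epithelial covariate their fold changes were -1.10, -0.87 and -2.03. Lmntd2, 4632411P08Rik and Ccdc78 were below 12 CPM in every library, and 4632411P08Rik and Ccdc78 passed the filter through WT alone. Gm36026 was lower too (-0.90 ± 0.16), but it lies beside Krt8 on the other strand, shares 101 exon bases with it and cannot be told apart from it in libraries of this kind. Krt8 and Wnt10b complete the 10 and are described below.

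**Figure D3:**
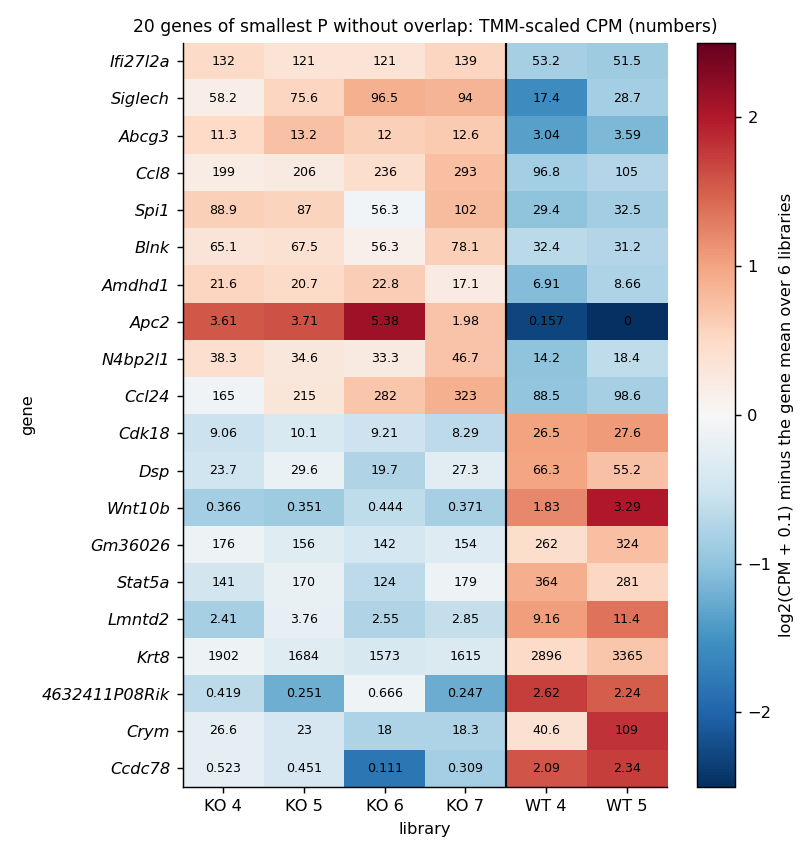
TMM-scaled CPM (numbers) of the 20 genes with the smallest P among those without overlap, in each library. Color gives log2(CPM + 0.1) minus the mean of the gene, and the line divides KO from WT. Ifi27l2a and Cdk18 show little spread within either label.

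Macrophage identity genes were higher in KO as a block. Of the 17 core genes, all 17 had a positive fold change, 11 without overlap and 11 at an unadjusted P under 0.05, with a median log2 fold change of 0.61. This median was 0.18 with the pan-epithelial covariate and 0.04 with the core list itself as the covariate. Of all genes tested, 9.67% were above WT without overlap and 5.31% were higher at an unadjusted P under 0.05. The leading gene was Spi1, which encodes PU.1, the factor that sets the myeloid program (ENSMUSG00000002111, chromosome 2, 91082390 to 91115756). Spi1 was at 88.9, 87, 56.3 and 102 CPM in KO 4 to KO 7 and at 29.4 and 32.5 CPM in WT (1.43 ± 0.26). Its fold change was 1.37 with the macrophage core covariate, which itself includes Spi1. Per 1000 CPM of the other core genes Spi1 was at 7.22 ± 2.18 in KO and 3.71 ± 0.18 in WT without overlap. Adgre1, the gene of the antigen used to select the cells, was at 253 to 375 CPM in KO and 183 and 215 CPM in WT (0.72 ± 0.20), and per 1000 CPM of the other core genes its libraries overlapped (28.2 ± 2.33 and 24.3 ± 2.23). Aif1, an actin-binding protein of macrophages, had a fold change of 0.98 ± 0.23 and the lysosomal protease gene Ctss one of 0.77 ± 0.19, both without overlap. Lyz2, lysozyme, was at 4340 to 7830 CPM in KO and 4831 and 4105 CPM in WT, which overlapped. Cd33 was at 53.3 to 80.6 against 37.4 and 38.5 CPM.

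Stromal and ductal macrophage genes were then examined, and the 2 lists were not tested against each other. All 13 stromal genes had a positive fold change (median 0.84), 6 without overlap and 8 at an unadjusted P under 0.05. Of all genes tested, 9.67% and 5.31% were higher in these ways. The monocyte-attracting chemokine Ccl8 was at 199, 206, 236 and 293 CPM in KO 4 to KO 7 and at 96.8 and 105 CPM in WT (1.21 ± 0.20). The eosinophil-attracting chemokine Ccl24 was at 165, 215, 282 and 323 CPM against 88.5 and 98.6 CPM (1.40 ± 0.27). Neither overlapped between labels, but with the macrophage core covariate the fold changes were 0.64 and 0.33. Per 1000 CPM of core genes the labels did not overlap either, with Ccl8 at 19.6 ± 1.92 and 12.1 ± 0.432 and Ccl24 at 20.3 ± 2.53 and 11.2 ± 0.60 in KO and WT. Folr2 was at 645 to 958 CPM against 373 and 486 CPM (0.89 ± 0.22, and 0.26 with that covariate), although an antisense model, Gm10602, covers part of it and has nearly as many counts. Timd4, a receptor for phosphatidylserine on dying cells, was at 54.3 to 84.7 CPM against 39.4 and 42.9 CPM, and Cbr2, a carbonyl reductase of resident macrophages, at 459 to 551 CPM against 229 and 407 CPM. Lyve1 itself was at 169 to 377 CPM in KO and 124 and 359 CPM in WT (0.09 ± 0.43, and -0.48 without WT 4), and the scavenger receptor gene Stab1 at 203 to 374 CPM against 240 and 313 CPM (0.03 ± 0.24, and -0.01 when scaled by library totals only), both with overlap. Among the 11 ductal genes 5 were higher and 6 lower, with a median of -0.33. Cx3cr1 was at 6.05 to 28.5 CPM in KO and 12.8 and 6.67 CPM in WT (0.58 ± 0.61) and Itgax, which encodes CD11c, at 18.1 to 32.2 CPM against 40.4 and 18.2 CPM (-0.33 ± 0.35), both with overlap. Fcrls was higher in KO (395 to 550 CPM against 185 and 307 CPM; 0.98 ± 0.24, and 0.09 with that covariate), whereas the tetraspanin Cd9, also abundant in epithelium, was at 732 to 926 CPM in KO and 1339 and 888 CPM in WT. Mmp12, a macrophage elastase, was at 27.7 to 77.8 CPM in KO and at 203 and 19.6 CPM in WT, so WT 4 set its group mean, and without WT 4 the ductal median was 0.36. With the macrophage core covariate the stromal median was -0.26 and the ductal median 0.09, and with the pan-epithelial covariate 0.22 and 0.11.

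Genes of antigen presentation, complement and chemokines shared this direction. Of 14 MHC class II and co-stimulation genes, 13 had a positive fold change, with a median of 0.87. Of these 13, 10 did not overlap and 12 were at an unadjusted P under 0.05. Among all genes tested, 9.67% and 5.31% were higher in these ways. Ciita, the master regulator of class II transcription, was at 49.5, 71.8, 66.3 and 79.3 CPM in KO 4 to KO 7 and at 31.4 and 38.4 CPM in WT (0.93 ± 0.23, and 0.13 with the macrophage core covariate). The invariant chain gene Cd74 was at 7286 to 13420 CPM against 5109 and 6725 CPM, H2-Eb1 at 1089 to 1824 CPM against 704 and 909 CPM, and the co-stimulatory ligand Cd86 at 73.3 to 127 CPM against 38.7 and 59.8 CPM. Cd83, which stabilizes class II at the surface, was at 382 to 682 CPM against 267 and 316 CPM. KO 4, the KO library with the lowest core sum, was also the lowest KO library for all 5 of these genes. With the macrophage core covariate the median of the list was -0.09, and with the pan-epithelial covariate 0.23.

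Of 22 complement genes 16 were higher, with 6 without overlap and 7 at an unadjusted P under 0.05 (median 0.36). The shares over all genes tested were 9.67% above WT without overlap and 5.31% higher at this P. C1qc, 1 of the 3 chains of the C1q recognition molecule, was at 1133, 1031, 958 and 1311 CPM in KO 4 to KO 7 and at 357 and 599 CPM in WT (1.21 ± 0.24, and 0.71 with the macrophage core covariate). Its partner chains C1qa (0.79 ± 0.22) and C1qb (0.69 ± 0.23) and the receptor gene C3ar1 (0.65 ± 0.18) were also higher without overlap. All 13 tested CC chemokine genes were higher (median 0.57), 6 of them without overlap, and besides Ccl8 and Ccl24 the monocyte chemokine Ccl7 was at 136 to 166 CPM against 94.9 and 105 CPM (0.55 ± 0.17). Chemokine receptor genes, of which 2 of 16 passed the filter through KO alone, had a median of 0.55, which was 0.10 with the macrophage core covariate, and summed to 539 to 895 CPM in KO and 796 and 788 CPM in WT. Among 18 Toll-like receptor genes and adaptors 14 were higher (median 0.39), led by the endosomal RNA sensor Tlr7 at 43 to 57.2 CPM against 11 and 27.8 CPM (1.34 ± 0.33, and 0.48 with that covariate) and by Tlr6 at 8.79 to 13.1 against 3.82 and 5.38 CPM. With the macrophage core covariate the medians were -0.41 for complement, -0.01 for CC chemokines and 0.04 for Toll-like receptors, and with the pan-epithelial covariate -0.10, 0.06 and -0.07.

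Lysosomal genes were modestly higher, 28 of 30 with a positive fold change, 12 without overlap and a median of 0.29. The protease gene Ctsc was at 793 to 956 CPM in KO and 462 and 643 CPM in WT, and the membrane protein gene Lamp1 at 141 to 266 against 114 and 106 CPM. Genes for the uptake of particles and dying cells were mixed, 20 of 28 higher with a median of 0.21, and 2 of these did not overlap. That is no more than among all genes tested, of which 9.67% were above WT without overlap. Among 16 tested genes of alternative activation, 1 of which passed the filter through WT alone, 13 were higher and 6 were above WT without overlap (median 0.61). With the macrophage core covariate the medians of these 3 lists were 0.03, -0.41 and -0.39. Retnla, a secreted marker of macrophages stimulated by IL-4, was at 2365, 2585, 3577 and 5604 CPM in KO 4 to KO 7 and at 1120 and 1016 CPM in WT (1.73 ± 0.36). Its fold change was 0.63 with the macrophage core covariate, and it was at 288 ± 72.7 against 128 ± 11.7 per 1000 CPM of core genes without overlap.

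**Figure D4:**
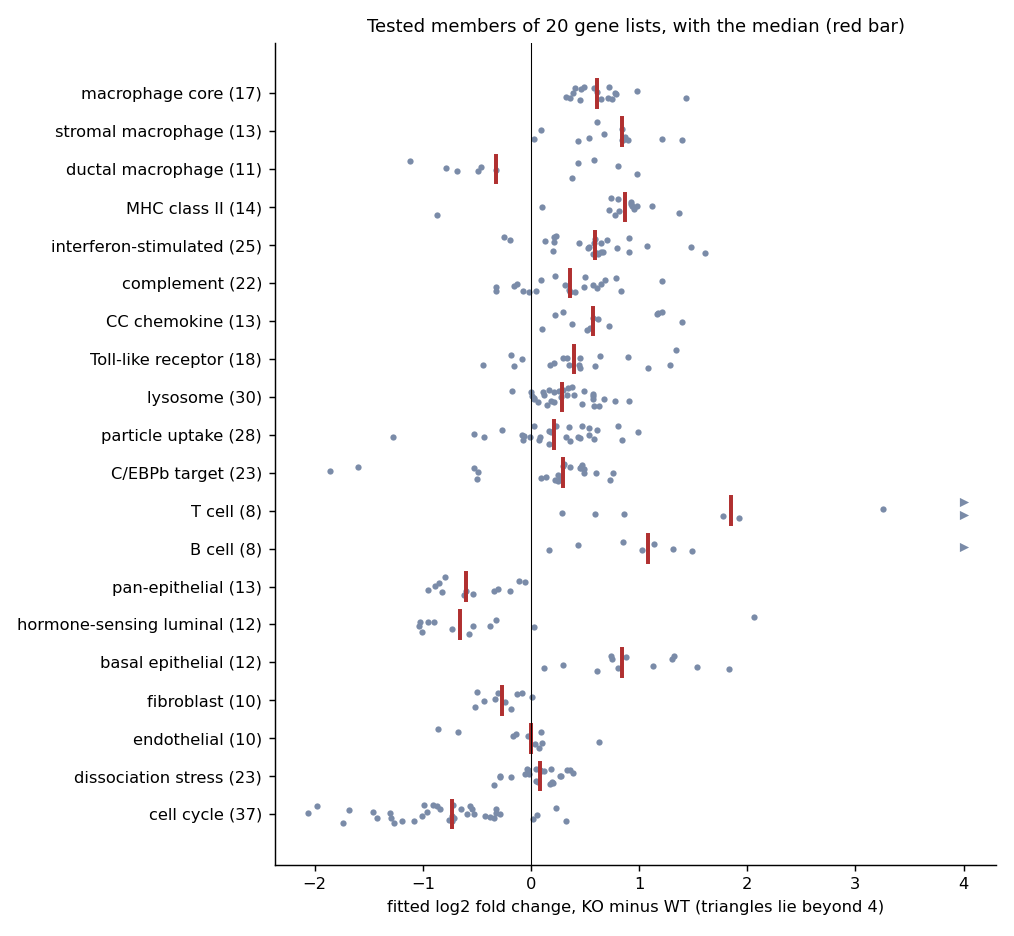
Fitted log2 fold change (KO minus WT) of the tested members (points, number in parentheses) of 20 gene lists, with the median as a red bar. Macrophage core, stromal, MHC class II and interferon-stimulated medians lie to the right of 0 and pan-epithelial and cell cycle medians to the left, while the basal median lies to the right.

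Interferon-stimulated genes were also higher in KO, although among KO libraries their sums were largest in KO 4 and KO 6 and smallest in KO 7, the library with the largest core sum. Of 25 genes 23 had a positive fold change, 13 without overlap and 12 at an unadjusted P under 0.05, and the median was 0.59. With the macrophage core covariate this median was 0.76 and with the pan-epithelial covariate 0.55. Among all genes tested, 9.67% were above WT without overlap and 5.31% were higher at an unadjusted P under 0.05. Oasl1, an antiviral factor of the oligoadenylate synthetase family, was at 229, 163, 237 and 211 CPM in KO 4 to KO 7 and at 81.9 and 118 CPM in WT (1.07 ± 0.22). Mx1, an antiviral GTPase, was at 18.4, 12.3, 18.4 and 9.4 CPM against 4.19 and 5.43 CPM (1.61 ± 0.39). Ifi44 was at 116 to 194 CPM against 70.3 and 86.2 CPM. Ifit3 was at 132 CPM in KO 4 and at 48.2 to 52.7 CPM in the other KO libraries, against 24.3 and 27 CPM in WT. Isg15, a ubiquitin-like modifier, was at 22 to 32.9 CPM against 18.7 and 16.6 CPM, and Oas3, which makes the activator of RNase L, at 33 to 54 CPM against 25.3 and 27.3 CPM. These 6 genes were chosen for small P, and 12 of the 25 in the list overlapped between labels.

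The promoters of these genes were read to show the element that interferon signaling uses. The interferon-stimulated response element was searched on both strands as GAAA, 2 bases of any kind and GAAA, with overlapping matches counted, in the 250 bases before each RefSeq start site (GRCm38.p6). It was found for 11 of the 19 listed genes present in the promoter table (57.9%) and for 3.46% of all 27025 genes there, for 2 of 11 macrophage core genes, for 1 each of 14 CC chemokine, 15 complement and 17 C/EBPβ target genes, and for none of 8 MHC class II and 11 stromal macrophage genes. The 3 promoters shown belong to the only listed genes that hold a match and were at an unadjusted P under 0.05. The other listed genes with a match had an unadjusted P of 0.0519 (Oas1a) to 0.564 (Cxcl10). Promoters are printed 5′ to 3′ on the strand of the gene with each match in capitals. Such a match is a description of the sequence and not a shown binding site.
Ifit3 (chr19:34583279-34583528, plus strand): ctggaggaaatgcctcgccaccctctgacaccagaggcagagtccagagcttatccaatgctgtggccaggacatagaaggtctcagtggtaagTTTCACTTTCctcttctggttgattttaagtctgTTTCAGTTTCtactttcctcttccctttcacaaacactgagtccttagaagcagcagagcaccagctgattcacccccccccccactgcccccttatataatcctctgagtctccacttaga
Isg15 (chr4:156200819-156201068, minus strand): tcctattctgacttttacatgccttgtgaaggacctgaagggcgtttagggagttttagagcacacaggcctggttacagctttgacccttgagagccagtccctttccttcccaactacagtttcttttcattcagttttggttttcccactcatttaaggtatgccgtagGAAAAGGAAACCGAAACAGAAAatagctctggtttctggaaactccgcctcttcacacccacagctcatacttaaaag
Oas3 (chr5:120777660-120777909, minus strand): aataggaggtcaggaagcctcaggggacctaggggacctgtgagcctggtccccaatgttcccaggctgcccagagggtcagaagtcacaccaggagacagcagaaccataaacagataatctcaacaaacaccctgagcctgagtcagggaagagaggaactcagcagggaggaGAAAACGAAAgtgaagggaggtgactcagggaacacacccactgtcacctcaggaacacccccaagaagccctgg
Ifit3 holds 2 matches, Isg15 holds 3 that overlap and Oas3 holds 1. Oasl1 and Ifi44, also higher in KO, hold none in this window. For comparison, TTNNGCAA on both strands, a half-palindromic form of the element that C/EBP factors bind, was present for 4 of 17 genes of a C/EBPβ target list and for 10.8% of all genes.

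**Figure D5:**
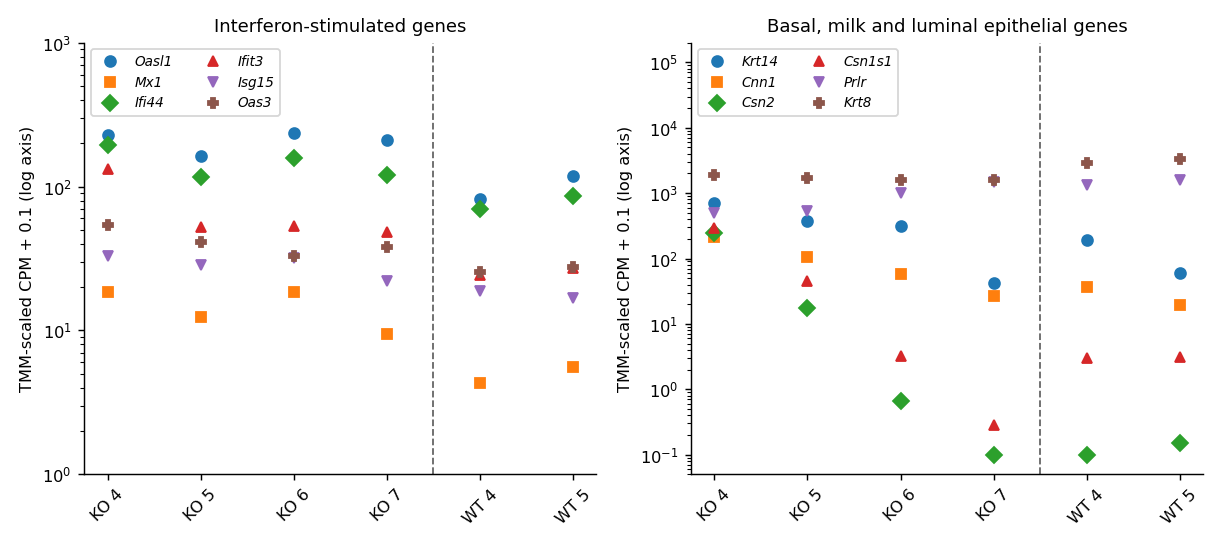
TMM-scaled CPM plus 0.1 (log axis) of interferon-stimulated genes (left) and of basal, milk and luminal epithelial genes (right) in each library, with a dashed line between KO and WT. The interferon-stimulated genes shown are higher in all KO libraries, as were 13 of the 25 in the list, whereas Csn2, Csn1s1, Krt14 and Cnn1 differ among KO libraries by more than between labels.

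Genes that C/EBPβ is known to regulate were read as a list. Of 23 tested genes in a C/EBPβ target list 18 were higher and 5 lower, 1 of the latter through a filter passed in WT alone, and the median was 0.30 (0.07 with the macrophage core and 0.13 with the pan-epithelial covariate). An unadjusted P under 0.05 was reached by 2 of the 23, Il1b and Cd14, both higher, and by 9.76% of all genes tested, so the list did not exceed the general share. The inflammatory cytokine Il1b was at 56.2, 114, 73.5 and 70.2 CPM in KO 4 to KO 7 and at 47.2 and 47.6 CPM in WT (0.73 ± 0.28). Il6 was at 47.8 to 168 CPM in KO and 82.4 and 67.3 CPM in WT, Tnf at 45.6 to 76.7 CPM against 42.9 and 38.8 CPM, and the nitric oxide synthase gene Nos2 at 2.1 to 4.88 CPM against 0.89 and 5.43 CPM. Il6 and Nos2 overlapped between labels, while Tnf did not (adjusted P = 0.549). Of 20 tested inflammatory cytokine genes 17 were higher, 1 through a filter passed in KO alone, with 7 without overlap and a median of 0.30 (-0.06 with the core covariate), among them the neutrophil-attracting chemokine Cxcl2 at 178 to 294 CPM against 112 and 164 CPM. Beside the inflammatory genes without overlap, the share of all genes tested above WT without overlap was 9.67%. The macrophage transcription factor list had 15 of 21 genes higher and a median of 0.25 (-0.28 with the core covariate).

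The summed level of T cell genes was 22.1 to 33.2 CPM in KO and 8.85 and 15.3 CPM in WT, without overlap, and that of B cell genes 321 to 482 CPM against 210 and 227 CPM, most of it Ighm. The plasma cell sum was 664 to 735 CPM in KO and 750 and 709 CPM in WT, most of it Sdc1 and Xbp1, a pair that WT epithelium expresses at 696 and 401 CPM, and the NK cell sum 2.16 to 6.19 CPM against 5.08 and 8.42 CPM, both with overlap between labels. Several T, B and plasma cell genes passed the expression filter through KO libraries alone, which fixes their direction, so no count of members is given. Cd4, which some macrophages express too, was at 10.5, 12.3, 6.6 and 3.46 CPM in KO 4 to KO 7 and at 1.73 and 2.64 CPM in WT. Other T cell genes were mixed. Cd3e was at 0.995 to 2.1 CPM in KO and 0.838 and 1.24 CPM in WT, with overlap. Trac, below the filter, was at 0.309 to 0.776 against 0.262 and 1.59 CPM, and Lck and Cd28 overlapped too. Trbc2, at 0.99 to 1.6 against 0.0523 and 0.647 CPM, did not overlap. The co-stimulator gene Icos was at 0.551 to 2.77 CPM in KO and had 0 counts in both WT libraries. Its KO mean was 11.5 times a WT floor of 3 counts (0.153 CPM), which is no bound for each library. The chemokine receptor gene Cxcr6 was at 0.433 to 1.89 CPM with 0 counts in WT, a KO mean 6.65 times that floor. The IgM heavy chain gene Ighm was at 265 to 419 CPM against 172 and 186 CPM (0.85 ± 0.22, and 0.24 with the macrophage core covariate). Fcmr, the receptor for IgM, was at 1.44 to 9.28 CPM and at 0 counts in WT. Its KO mean was 23.5 times the same WT floor, and KO 7 supplied most of that mean. Icos, Cxcr6 and Fcmr passed the filter through KO alone, so their direction was fixed. Among plasma cell genes the transcription factor gene Prdm1 was at 12.6 to 16 against 5.65 and 7.82 CPM, and Sdc1 at 207 to 256 CPM against 339 and 317 CPM (-0.49 ± 0.15), while Jchain, the joining chain of secreted IgA and IgM, was at 4.29, 1.7 and 1.11 CPM in KO 4 to KO 6 and at 0 in KO 7 and in WT. Siglech, a marker of plasmacytoid dendritic cells and of some macrophages (chromosome 7, 55768178 to 55778925), was at 58.2, 75.6, 96.5 and 94 CPM in KO 4 to KO 7 and at 17.4 and 28.7 CPM in WT (1.81 ± 0.29, and 0.67 and 1.02 with the macrophage core and pan-epithelial covariates). The other 7 tested genes of the plasmacytoid list were not below an unadjusted P of 0.05.

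Of the epithelial genes, the pan-epithelial list defined the carry-over above, so its direction is not a separate result. All 13 of its genes had a negative fold change, with a median of -0.60, which was 0.40 with the macrophage core covariate. Of the 13, 4 did not overlap and 7 were at an unadjusted P under 0.05. Among all genes tested, 9.08% and 4.45% were lower in these ways. The luminal keratin Krt8 (chromosome 15, 101996698 to 102004482) was at 1902, 1684, 1573 and 1615 CPM in KO 4 to KO 7 and at 2896 and 3365 CPM in WT (-0.89 ± 0.16). Krt18, its partner, was at 1329 to 1771 CPM against 2800 and 2673 CPM, Krt19 at 1342 to 2371 CPM against 2834 and 2905 CPM, and Krt7 at 115 to 291 CPM against 342 and 389 CPM. Of 12 hormone-sensing genes 10 were lower (median -0.65), among them the EGF-family ligand Areg at 66.6 to 240 CPM against 323 and 242 CPM. The median of this list was -1.65 with the macrophage core covariate and -0.89 with the pan-epithelial covariate. The prolactin receptor gene Prlr was at 492, 541, 1020 and 1463 CPM in KO 4 to KO 7 and at 1340 and 1582 CPM in WT, so KO 7 lay between the WT libraries.

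Basal genes had the opposite sign, 12 of 12 higher in KO with a median of 0.84, yet none was without overlap. The median was 3.61 with the macrophage core covariate and 2.40 with the pan-epithelial covariate. Krt14 was at 713, 377, 317 and 42.7 CPM in KO 4 to KO 7 and at 191 and 59.2 CPM in WT, and the smooth muscle gene Cnn1 at 211, 105, 58.8 and 26.9 CPM against 37.1 and 19.5 CPM. Acta2, smooth muscle actin, was at 501 to 1502 CPM against 736 and 521 CPM. KO 4 was the highest library for all 3 genes. Milk protein genes were more uneven still. The casein gene Csn2 had 245, 17.2, 0.555 and 0 CPM in KO 4 to KO 7 and 0 and 0.0498 CPM in WT, and Csn1s1 had 289, 44.5, 3.16 and 0.186 CPM against 2.93 and 2.99 CPM. Their group differences rest on KO 4 and KO 5, since in KO 6 and KO 7 Csn2 was below 1 CPM, and Csn1s1 was close to WT in KO 6 and below it in KO 7. Lalba, alpha-lactalbumin, was at 1.42 to 9.26 CPM against 0.523 and 0.697 CPM, and it passed the filter through KO alone, as Csn2 did. Transferrin (Trf), which luminal cells and macrophages both express, was at 2892, 1942, 2847 and 2751 CPM in KO and 1252 and 1600 CPM in WT (0.87 ± 0.22).

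Cell cycle genes were lower in KO, 33 of 37 with a negative fold change and a median of -0.73. Of the 37, 9 lay below WT without overlap and 6 were lower at an unadjusted P under 0.05. Of all genes tested, 9.08% and 4.45% were lower in these ways. The summed level of cell cycle genes was 1120, 955, 437 and 434 CPM in KO 4 to KO 7 and 1573 and 864 CPM in WT (exact permutation P = 0.4). WT 5 was lower than KO 4 and KO 5, so the labels overlapped. The mitotic cyclin gene Ccnb2 was at 25.9, 26, 3.72 and 4.27 CPM in KO and at 79 and 41.5 CPM in WT (-1.98 ± 0.65), and the mitotic kinase Plk1 at 0.998 to 12.7 CPM against 26.2 and 16.8 CPM. Aurka, another mitotic kinase, was at 9.53 to 17.1 CPM against 43.6 and 20.4 CPM, the replication licensing gene Mcm3 at 37.8 to 54.9 CPM against 90.5 and 68.9 CPM, and Ccnf at 2.6 to 11.6 CPM against 13.8 and 14.1 CPM. Chtf18, a clamp loader of DNA replication, was at 1.86 to 7.82 CPM against 14.3 and 16.5 CPM (-1.74 ± 0.41) and kept this value with the macrophage core covariate (-1.80). The list as a whole did not, with a median of 1.06 in that fit and 0.46 with the pan-epithelial covariate.

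Wnt ligands are secreted signals that macrophages can supply to the epithelium. Of 12 tested ligand genes 5 were higher and 7 lower (median -0.32, but 0.08 without KO 5 and 0.28 without WT 5), and 3 of them passed the filter through 1 label alone. The median was -0.91 with the macrophage core covariate and -0.50 with the pan-epithelial covariate. Wnt10b was at 0.366, 0.351, 0.444 and 0.371 CPM in KO 4 to KO 7 and at 1.83 and 3.29 CPM in WT (-2.73 ± 0.53). No KO library was over 1 CPM, so the gene passed the filter through WT alone, which fixes its direction. Wnt4, a progesterone target of luminal cells, was at 11.6 to 31.7 CPM against 40 and 35 CPM (-1.02 ± 0.36), and Wnt2 at 4.33 to 12.2 CPM against 16.4 and 14.2 CPM (-0.87 ± 0.36). Wnt5a, a ligand of noncanonical signaling, was at 29.5, 8.82, 51.5 and 36.1 CPM in KO and at 41.3 and 158 CPM in WT, which overlapped and rested on WT 5. In the opposite direction, Wnt2b was at 0.804 to 2.71 CPM against 0.157 and 0.398 CPM (2.88 ± 0.83), and it passed the filter through KO alone. The summed level of Wnt ligands was 66 to 113 CPM in KO and 121 and 244 CPM in WT (exact permutation P = 0.133). Wnt4 and Wnt5a are abundant in WT epithelium, at 25.4 and 94.8 CPM, while Wnt10b, at 0.0188 CPM there, is not.

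Among 17 Wnt antagonist genes and negative regulators 6 were higher, 2 of them through a filter passed in KO alone, and 11 lower (median -0.10, and 0.65 with the macrophage core covariate). The median was 0.41 with the pan-epithelial covariate, 0.10 without KO 6 and 0.04 without WT 4, and it kept its sign in the other leave-out fits. Apc2, a relative of the tumor suppressor APC (chromosome 10, 80295977 to 80318263), was at 3.61, 3.71, 5.38 and 1.98 CPM in KO 4 to KO 7, with 0.157 and 0 CPM (3 and 0 counts) in WT, and passed the filter through KO alone. The secreted antagonist Wif1 was at 1.98 to 54.7 CPM in KO and at 18.5 and 4.23 CPM in WT, ordered among KO libraries as Krt14 was, and Amer2 was at 1.2 CPM in KO 4 and KO 5 and at 0 in the other 4 libraries, so the same limit holds for it. Tfcp2l1, an epithelial transcription factor, was at 13.9 to 31.2 CPM against 50.5 and 48 CPM (-1.30 ± 0.29).

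Notch genes gave no common direction. Of 9 tested receptors and ligands 3 were higher and 6 lower (median -0.07), and of 11 effectors 4 and 7 (median -0.17). These medians were -0.73 and -0.55 with the macrophage core covariate and -0.87 and -0.45 with the pan-epithelial covariate. Without WT 5 they were 0.15 and 0.10, and without KO 7 the receptor and ligand median was 0.02. Both kept their sign in the other leave-out fits. Notch2 was at 170, 171, 195 and 217 CPM in KO 4 to KO 7 and at 132 and 153 CPM in WT (0.40 ± 0.17; adjusted P = 0.501), above WT in every KO library, but its fold change was -0.047 with the macrophage core covariate, while Notch3 was at 89.2 to 142 CPM against 111 and 162 CPM with overlap. The Notch ligand Dner was at 0.61 to 1.1 CPM against 2.46 and 3.68 CPM (-1.81 ± 0.50) and Jag1 at 33.4 to 59.3 CPM against 64 and 66.3 CPM (-0.57 ± 0.23). Rbpj, the DNA-binding partner of the Notch intracellular domain, was higher (39.2 to 49.5 CPM against 24.7 and 32.3 CPM). Its relative Rbpjl, which does not bind Notch, was at 1.2, 2.16, 3.4 and 3.1 CPM in KO and at 9.68 and 7.72 CPM in WT (-1.84 ± 0.40). Rbpjl shares 149 exon bases with Matn4 on the other strand, which had 880 counts over the 6 libraries against 517. Counts in the shared bases cannot be told apart. The repressor Hes6 was at 22.4 to 40.6 CPM against 52.7 and 46.1 CPM.

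Further lists are given by their medians. Genes induced by tissue dissociation, such as Fos and Jun, had a median of 0.08 over 23 genes, with none at an unadjusted P under 0.05, and of -0.38 and -0.42 with the macrophage core and the pan-epithelial covariate. In the same 2 fits the endothelial median was -0.82 and -0.93 and the conventional dendritic cell median -0.37 and -0.01. With the values of those fits in parentheses, medians were -0.27 (-0.48 and -0.17) for fibroblast genes, -0.05 (-0.63 and -0.45) for extracellular matrix remodeling, 0.00 (-0.01 and -0.16) for growth factors for epithelium and -0.09 (-0.54 and -0.35) for monocyte genes. The monocyte median was 0.10 without KO 6 and 0.01 without WT 4. That of extracellular matrix remodeling was 0.06 without KO 4 and 0.07 without WT 4 or WT 5. Both kept their sign in the other leave-out fits. Without a covariate the medians of endothelial and conventional dendritic cell genes were 0.00 and 0.45. All 10 mitochondrial transcripts were higher, none without overlap (median 0.49, and 0.52 and 0.40 with the macrophage core and the pan-epithelial covariate). The 33 genes that the study names for macrophages, a list drawn largely from these libraries and so no independent evidence of direction, had 21 higher and 12 lower, with 22 without overlap and 25 at an unadjusted P under 0.05, and 9 of them passed the filter through 1 label alone. Of these, Lamp5 had 5.97 and 2.31 CPM in KO 4 and KO 5 and 0 in the other 4 libraries. By chromosome, the share of tested genes at an unadjusted P under 0.05 ran from 7.01% (chromosome 12) to 11.1% (chromosome 1), and it was 8.37% on chromosome 2, which carries Cebpb.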

How the data were processed

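RNA of F4/80-selected cells was sequenced by a low-input protocol. The authors trimmed reads with Trimmomatic (v0.33), aligned them to GRCm38 with HISAT2 (v2.1.0) and deposited counts of read pairs per gene made with featureCounts (v1.6.2), which were used as deposited. The counting was set to a stranded protocol, yet for 53 antisense models covered by an abundant gene the count per length was a median of 2.13 times that of the covering gene, so overlapping genes on opposite strands cannot be told apart.

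Of 55487 genes, those of at least 300 nt with over 1 CPM in at least 2 libraries were normalized by TMM and tested with edgeR (v4.0.16) by the QL test, with Benjamini-Hochberg adjustment over all 17772 and a threshold of 0.05. Values after a fold change are SE and other errors are SD. Unadjusted P-values are from this edgeR fit. Library sums and percents were compared by an exact two-sided permutation test over libraries. DESeq2 (v1.42.0), other edgeR tests, scalings, filters, covariates and leaving out each library were alternatives. Scripts were tested on simulated data. Macrophage-high genes were defined by an 8-fold ratio over the 2 WT epithelial libraries.

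Named genes are Cebpb, genes the study names, up to 4 members of smallest P in each direction in each list and members that define a cell type. The rule's places for genes with an adjusted P of 0.05 or less were empty, and the genes of smallest P were added after their values were seen. The comparison and all gene lists were chosen with earlier results of these data known.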

Additional observations from a re-analysis of the deposited data

Results flagged for a closer look

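Among the 108 named genes and 43 list sums, 9 had 1 of the 4 KO libraries far from the other 3 by Dixon's criterion, which by chance marks about 1 group in 20. KO 4 was far above the other KO libraries for the casein genes Csn2 (245 CPM) and Csn1s1 (289 CPM), for the interferon-stimulated gene Ifit3 (132 CPM) and for the sum of the genes the study names (3484 CPM). KO 7 was far above for the IgM receptor gene Fcmr (9.28 CPM), the tetraspanin gene Cd9 (926 CPM) and the luminal keratin gene Krt19 (2371 CPM). KO 5 was far below for Trf (1942 CPM), and KO 6 was far above for the sum of Notch receptor and ligand genes (721 CPM).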

How the results depend on the processing

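The number of genes called depended on the test. It was 138 by the likelihood ratio test, 201 by DESeq2, 14 with the macrophage core covariate, 273 by the likelihood ratio test with trended dispersions and 1 with replicates 4 and 5 only, against 0 by the QL test and 0 in each fit that left out 1 library. The covariate and trended fits were added after the data were seen. A replicate block in the QL test gave 89 genes, 8 of them shared with the likelihood ratio test. Only numbers 4 and 5 occur in both groups, and deviations of same-numbered libraries correlated at 0.129 and -0.0865, so the numbers were not taken to pair the libraries. The cause of these differences was not tested. The KO minus WT carry-over, -13.8 percentage points with pan-epithelial genes, was -22.7 with hormone-sensing, 14.05 with basal, 16.8 with luminal progenitor genes (3.55 without Trf and Cd14, chosen after the data were seen) and 21.0 with milk protein genes. The milk protein value rested on KO 4, at 140%, with 26.2 to 46.9% in KO 5 to KO 7 and 47.4 and 32.5% in WT. Without Trf and Cd14 the luminal progenitor list was also highest in KO 4, at 31.9%. It was at 16.6 to 21.3% in KO 5 to KO 7 and at 19.0 and 17.2% in WT.

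Of 108 named genes 95 were fitted in every setting and 74 of these kept their direction, and the other 13, left out by the filter in at least 1 setting, kept theirs where fitted. With the macrophage core covariate the log2 fold change became 0.42 for Ccnb2, 0.22 for Ccnf, 0.29 for Aurka, 0.43 for Plk1, 0.78 for Epcam, 0.29 for Itgax and 1.46 for Mmp12, and -1.39 for Lyve1, -0.80 for Stab1, -0.047 for Notch2, -0.36 for Il6, -1.72 for Nos2, -0.25 for Csf1r, -0.17 for Lyz2, -0.12 for C1qb, -0.054 for Cd86, -0.0055 for Cd83, -0.20 for Cd74 and -0.033 for Cxcl2. With the pan-epithelial covariate it became -0.93 for Lyve1, -0.81 for Stab1, -1.26 for Il6, -1.90 for Nos2, -0.037 for Csf1r, 0.74 for Mmp12, 0.84 for Epcam, 0.0098 for Plk1 and -0.040 for Cxcl2. Il6 was -0.17, Epcam 0.053, Lyve1 -0.21 and Stab1 -0.19 with the replicate block, and -0.11, 0.14, -0.38 and -0.17 with replicates 4 and 5 only. Stab1 was -0.014 by library totals. Leaving out 1 library gave -0.26 to 0.45 for Il6, -0.67 to 1.93 for Nos2, -1.99 to 1.38 for Mmp12, -0.41 to 0.034 for Epcam, -0.37 to 0.41 for Cebpa, -0.48 to 1.06 for Lyve1, -0.15 to 0.23 for Stab1, -0.0059 to 1.12 for Cx3cr1 and -0.79 to 0.36 for Itgax, with the sign turning without KO 6 for Il6 and Epcam, KO 6 or WT 4 for Lyve1 and Stab1, KO 5 for Cx3cr1, WT 4 for Itgax, KO 5, KO 6 or WT 4 for Nos2, WT 4 for Mmp12, and KO 5 or WT 5 for Cebpa. With 2 WT libraries, the spread within WT rests on 1 difference, and counts near 0 limit the lymphoid, milk and Wnt genes.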
